A study of Mus musculus with 12 samples.

Results

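The 43 genes described here encode proteins that mature the large (60S) subunit of the ribosome. They were chosen by gene symbol from a list of assembly factors, and all 43 were found among the 55385 genes of the mouse C2C12 total RNA table. C2C12 is a clonal myoblast line of mouse muscle origin whose cells leave the cell cycle and fuse into multinucleate myotubes. The groups compared were 3 myotube libraries, taken after 7 days of differentiation, and 3 libraries of undifferentiated C2C12 myoblasts as the control. Neither group carries a genetic change or an added compound in its labels, all cells come from that 1 line, and no label names a medium, a sort of fused cells or separate cultures. The p-values therefore measure the spread between these libraries, which may be technical. The 6 mouse embryonic stem cell samples of the same series were profiled for small RNA and hold no values for these genes.

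A ribosome starts in the nucleolus, where RNA polymerase I makes a long precursor that is cut and folded while ribosomal proteins and assembly factors join it. On the 60S side, early factors hold the precursor RNA in shape, helicases and GTPases remodel it, the 5S particle docks and turns, and the rixosome trims the spacer between the 5.8S and 28S RNAs. The particle is then exported and loses its last factors in the cytoplasm. In cycling cells this pathway is a large cost, and its genes are known targets of the transcription factor MYC. Skeletal muscle cells stop dividing when they fuse, and growth of a fibre later depends on making new ribosomes.

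Promoter sequences are shown for 6 members, because their RefSeq windows hold the start of a neighbour or the motifs described further on. Windows run from 250 bases before to 50 bases after the annotated start on GRCm38.p6, are written along the strand of the member, and were found for 36 of the 43. In the first set the capitals run from the start of the neighbouring gene, which is read the other way, to the start of the member. These members are Mrto4 (chr4:139352527-139352826, minus strand), Gnl3 (chr14:31019082-31019381, minus strand) and Nop16 (chr13:54590025-54590324, minus strand).
Mrto4: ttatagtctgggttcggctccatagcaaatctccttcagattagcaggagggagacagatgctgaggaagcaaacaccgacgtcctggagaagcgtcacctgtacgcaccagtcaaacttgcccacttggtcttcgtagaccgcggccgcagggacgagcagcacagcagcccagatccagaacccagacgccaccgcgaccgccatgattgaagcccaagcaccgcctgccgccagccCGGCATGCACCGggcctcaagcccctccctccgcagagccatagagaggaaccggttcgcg
Gnl3: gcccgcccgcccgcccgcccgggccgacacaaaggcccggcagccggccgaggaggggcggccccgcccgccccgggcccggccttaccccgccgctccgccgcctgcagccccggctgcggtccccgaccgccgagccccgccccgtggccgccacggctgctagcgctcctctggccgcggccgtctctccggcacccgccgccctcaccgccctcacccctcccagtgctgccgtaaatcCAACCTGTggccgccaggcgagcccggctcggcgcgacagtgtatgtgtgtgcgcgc
Nop16: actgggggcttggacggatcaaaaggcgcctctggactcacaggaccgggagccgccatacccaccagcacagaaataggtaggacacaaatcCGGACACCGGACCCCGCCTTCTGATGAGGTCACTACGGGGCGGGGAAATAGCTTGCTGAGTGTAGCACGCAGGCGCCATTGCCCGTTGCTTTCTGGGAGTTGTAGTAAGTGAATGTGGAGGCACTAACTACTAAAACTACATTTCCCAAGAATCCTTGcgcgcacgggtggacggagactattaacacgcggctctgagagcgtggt

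In the second set the capitals mark the E-box CACGTG, a binding sequence of MYC with its partner MAX, and the ETS core CCGGAAG, each on either strand. Its members are Pelp1 (chr11:70409982-70410281, minus strand), Rpf2 (chr10:40246990-40247289, minus strand) and Ppan (chr9:20887925-20888224, plus strand). Pelp1 and Ppan have 1 marked motif each, and Rpf2 has 4.
Pelp1: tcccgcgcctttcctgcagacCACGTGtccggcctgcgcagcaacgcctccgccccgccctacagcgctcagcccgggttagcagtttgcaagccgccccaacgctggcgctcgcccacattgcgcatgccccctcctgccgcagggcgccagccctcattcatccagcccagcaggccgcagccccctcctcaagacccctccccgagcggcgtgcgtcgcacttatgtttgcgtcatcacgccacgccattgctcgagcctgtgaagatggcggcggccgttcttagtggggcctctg
Rpf2: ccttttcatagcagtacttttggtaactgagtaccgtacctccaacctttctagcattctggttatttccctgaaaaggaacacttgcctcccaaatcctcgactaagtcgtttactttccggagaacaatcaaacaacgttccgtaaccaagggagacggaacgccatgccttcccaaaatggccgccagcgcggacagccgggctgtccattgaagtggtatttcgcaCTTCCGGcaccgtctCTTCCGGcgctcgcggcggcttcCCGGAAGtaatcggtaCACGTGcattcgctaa
Ppan: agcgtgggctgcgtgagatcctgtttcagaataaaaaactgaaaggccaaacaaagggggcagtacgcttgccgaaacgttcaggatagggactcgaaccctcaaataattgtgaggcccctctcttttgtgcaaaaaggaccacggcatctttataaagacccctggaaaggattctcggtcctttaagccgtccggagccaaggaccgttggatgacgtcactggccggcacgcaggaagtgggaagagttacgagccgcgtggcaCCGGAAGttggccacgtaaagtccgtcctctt

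Total assigned counts were between 18335785 and 31119511 in the myotube libraries and between 22200097 and 54083215 in the myoblast libraries. The labels held against marker genes: all 10 myotube markers were higher in myotubes, with summed levels of 9746 to 23320 CPM (counts scaled to library size) in myotube libraries and 123 to 256.6 CPM in myoblast libraries. All 10 proliferation markers were lower, with 1082, 342.8 and 274 CPM in myotube libraries 1 to 3 and 3196 to 3266 CPM in myoblast libraries. Fibroblast markers also differed, the 5 tested of 6 being higher in myotubes, with sums of 26670, 6943 and 7564 CPM in myotube libraries 1 to 3 and 1128 to 1475 CPM in myoblast libraries, while Thy1 was at 0. The 4 undifferentiated myoblast markers summed to 60.54 to 75.56 CPM in myotube libraries and 191 to 395.3 CPM in myoblast libraries. Of these, 3 were lower, while Pax7 overlapped between groups and was not called (log2 fold change -0.64, edgeR adjusted p = 0.5475). Mitochondrial genes took 4.518% to 5.68% of counts in myotube libraries and 0.9525% to 1.959% in myoblast libraries. Myotube library 1 stood apart, with the lowest myotube marker sum and the highest proliferation and fibroblast sums of its group. The part of these marker differences, or of any mixture of cells, in the results was not tested. In bulk libraries fewer cells of a type cannot be told apart from less RNA per cell.

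Most 60S maturation genes were lower in myotubes. Of 43 members, 26 fell, 0 rose and 17 were not called by edgeR's quasi-likelihood test at an adjusted p of 0.05, against a background of 19.6% of 15932 tested genes that fell and 20.5% that rose. All 43 were tested, none having fewer than 171 counts in any library, and all 43 had a negative log2 fold change. It follows from these signs that 0 members were higher at an unadjusted p under 0.05 in the same test. DESeq2 also called 0 higher. The median log2 fold change of the members was -0.96, beside 0.06 over all tested genes, so that the median member stood at 51.3% of its myoblast level. In 37 of the 43 every myotube library was below every myoblast library, beside 27.2% of all tested genes. A fall beyond a log2 fold change of -1 was called for 20 members, beside 12.1% of tested genes. When libraries with the same number were blocked as pairs, 33 members fell and 0 rose, beside 20.9% of all tested genes that fell.

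Summed over all 43 genes, the members took 1897, 2889 and 2673 CPM in myotube libraries 1 to 3, against 4477, 4757 and 6438 CPM in myoblast libraries 1 to 3. The groups did not overlap, and the sum averaged 2486 ± 521.9 CPM in myotubes and 5224 ± 1061 CPM in myoblasts (SD, n = 3 each). Without Npm1, which alone gave between 9.46% and 20.7% of the members' counts in myotube libraries and between 16.7% and 24.1% in myoblast libraries, the sum was 2172 ± 584.9 CPM in myotubes and 4085 ± 722.8 CPM in myoblasts (SD, n = 3 each).

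**Figure D1:**
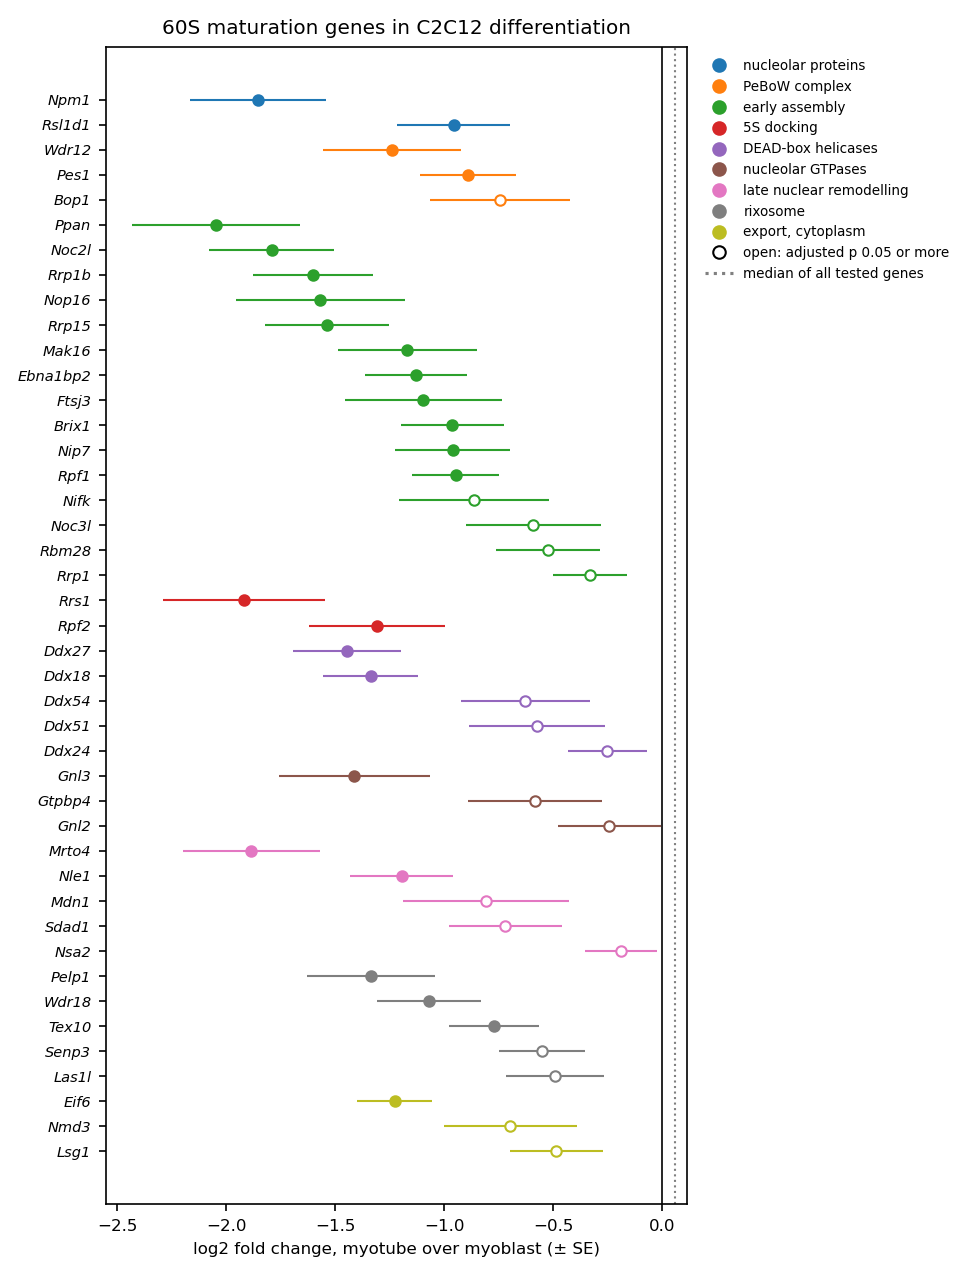
Log2 fold change of each of the 43 members, myotube over myoblast, with its standard error, grouped by the step of 60S assembly; filled points are called at an adjusted p of 0.05, and the dotted line is the median of all tested genes. All 43 points lie below 0, from -2.05 for Ppan to -0.19 for Nsa2, and 26 are filled.

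Npm1 and Rsl1d1, listed together as nucleolar proteins outside the other role groups, both fell. Npm1 encodes nucleophosmin, the abundant histone and ribosomal protein chaperone that scaffolds the outer layer of the nucleolus. It had 393, 298 and 253 CPM in myotube libraries 1 to 3, against 747, 1148 and 1520 CPM in myoblast libraries 1 to 3. The lowest myoblast library was 1.90 times the highest myotube library, and the log2 fold change was -1.86 ± 0.31 (SE, edgeR adjusted p = 0.00268). Npm1 (ENSMUSG00000057113.13, at chr11:33152498-33164142 on GRCm38.p6) was the most abundant member per length, with 118 ± 26.8 FPKM in myotubes and 427 ± 145 FPKM in myoblasts (SD, n = 3 each), where FPKM are CPM divided by the length of the gene model in kilobases. Npm1 has processed pseudogenes, and reads shared with them may be counted elsewhere. It ranked 280 among all tested genes in myotubes and 60 in myoblasts on that scale. It was also 1 of only 2 members with their highest myotube value in library 1, the other being Nsa2. Rsl1d1, a nucleolar protein with a ribosomal L1 domain, fell by 0.96 on the log2 scale (SE 0.26, edgeR adjusted p = 0.0203). That call was lost without myotube library 3, myoblast library 2 or myoblast library 3, with adjusted p-values of 0.0544, 0.051 and 0.0678, and without both myotube library 1 and myoblast library 3 (0.0549).

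The PeBoW complex, which Pes1, Bop1 and Wdr12 form and which is needed to process the precursor of the 28S and 5.8S RNAs, had 2 of 3 genes lower. Wdr12 had 17.6, 38.0 and 38.4 CPM in myotube libraries 1 to 3, against 69.0, 61.0 and 92.3 CPM in myoblast libraries 1 to 3. Every myotube library was below every myoblast library, and the log2 fold change was -1.24 ± 0.32 (SE, edgeR adjusted p = 0.0158), a call lost without myoblast library 3 at an adjusted p of 0.056. Pes1 fell by 0.89 (SE 0.22, edgeR adjusted p = 0.0137). Bop1 had 47.4, 123 and 102 CPM in myotube libraries 1 to 3, against 143, 140 and 173 CPM in myoblast libraries 1 to 3. The groups of Bop1 did not overlap, but myotube library 1 was far below the other two, and the fold change of -0.75 ± 0.32 was not called (SE, edgeR adjusted p = 0.0986). With the replicate block its adjusted p was 0.0444, and without myotube library 2 it was 0.0443.

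Early assembly factors, which bind the precursor while it is still in the nucleolus, were the largest group, and 11 of 15 fell, with a median log2 fold change of -1.10. Ppan, the counterpart of yeast Ssf1, had the most negative fold change of all members. It had 7.54, 21.0 and 16.1 CPM in myotube libraries 1 to 3, against 50.8, 50.4 and 83.4 CPM in myoblast libraries 1 to 3. The 2 groups were separated by a gap of 2.40 times, and myotubes held 24.2% of the myoblast level (log2 fold change -2.05 ± 0.39, SE, edgeR adjusted p = 0.00464). Without both myotube library 1 and myoblast library 3 the fold change of Ppan was -1.45, still called. Noc2l, which works with partner NOC proteins in moving pre-ribosomes towards the nucleoplasm, followed at -1.79 ± 0.29 (SE, edgeR adjusted p = 0.00222). Rrp15, Nop16 and Rrp1b fell by 1.54, 1.57 and 1.60 on the log2 scale.

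The other early factors called lower moved by smaller amounts. Mak16 fell by 1.17 and Ebna1bp2, the counterpart of yeast Ebp2, by 1.13. Ftsj3, an RNA methyltransferase related to yeast Spb1, fell by 1.10 (edgeR adjusted p = 0.0414), a call lost when any of myotube library 3 or myoblast libraries 1, 2 and 3 was left out, with adjusted p-values of 0.0619, 0.0625, 0.0692 and 0.123, and when genes under a mean of 50 counts were dropped (0.0526). Brix1, Nip7 and Rpf1 fell by 0.96, 0.96 and 0.95. Mak16 lost its call without myoblast library 3 (edgeR adjusted p = 0.0719). The call for Nip7 was lost without myotube library 3 or myoblast library 3, with edgeR adjusted p-values of 0.0566 and 0.0735.

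The 4 early factors that were not called were Rrp1, Rbm28, Nifk and Noc3l. Rrp1 was the most abundant of the early group per length, at 42.1 ± 5.12 FPKM in myotubes and 53.1 ± 3.94 FPKM in myoblasts (SD, n = 3 each). It had 121, 148 and 153 CPM in myotube libraries 1 to 3, against 190, 164 and 178 CPM in myoblast libraries 1 to 3. The groups did not overlap, but the difference was small beside its error, at -0.33 ± 0.17 (SE, edgeR adjusted p = 0.15). Rbm28, related to yeast Nop4, overlapped between groups at -0.52 ± 0.24 (edgeR adjusted p = 0.11, and 0.045 with the replicate block). Nifk, which binds the proliferation antigen Ki-67, stood at -0.86 ± 0.35 (edgeR adjusted p = 0.0786, and 0.0184 with the block). Noc3l stood at -0.59 ± 0.31 (edgeR adjusted p = 0.158).

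Rpf2 and Rrs1, the pair that docks the 5S particle with the proteins Rpl5 and Rpl11, both fell, and their median of -1.61 was the most negative of the 9 role groups. Rpf2 had 15.3, 28.2 and 28.8 CPM in myotube libraries 1 to 3, against 44.2, 53.3 and 81.4 CPM in myoblast libraries 1 to 3. Rrs1 had 9.51, 24.3 and 19.2 CPM in myotube libraries 1 to 3, against 52.4, 56.8 and 91.8 CPM in myoblast libraries 1 to 3. Neither gene overlapped between groups, with log2 fold changes of -1.31 ± 0.31 for Rpf2 and -1.92 ± 0.37 for Rrs1 (SE, edgeR adjusted p = 0.0124 and 0.00503).

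Among the 5 DEAD-box RNA helicases, enzymes that unwind or rearrange the precursor RNA, Ddx27 and Ddx18 fell. Ddx27 had 42.1, 73.1 and 68.1 CPM in myotube libraries 1 to 3, against 174, 136 and 189 CPM in myoblast libraries 1 to 3. Every myoblast library was well above the myotube range, with a log2 fold change of -1.45 ± 0.25 (SE, edgeR adjusted p = 0.00291). Ddx18 fell by 1.34 ± 0.22 (SE, edgeR adjusted p = 0.00227). Ddx54, Ddx51 and Ddx24 were not called, at -0.63 ± 0.30, -0.57 ± 0.31 and -0.25 ± 0.18 (SE, edgeR adjusted p = 0.122, 0.171 and 0.293), and Ddx51 overlapped between groups. Ddx54 was called without myotube library 2 (adjusted p = 0.0439).

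Of the 3 nucleolar and nuclear GTPases, Gnl3 was called lower. Gnl3 encodes nucleostemin, known from stem cells and other dividing cells, and had 33.1, 84.4 and 73.3 CPM in myotube libraries 1 to 3, against 145, 147 and 216 CPM in myoblast libraries 1 to 3. The groups were well separated, at -1.41 ± 0.35 (SE, edgeR adjusted p = 0.0139). Gnl2, the counterpart of yeast Nog2, had 45.7, 72.5 and 77.2 CPM in myotube libraries 1 to 3, against 75.8, 64.9 and 90.5 CPM in myoblast libraries 1 to 3. Its groups overlapped, the fold change was -0.24 ± 0.24 (SE, edgeR adjusted p = 0.434), and without both myotube library 1 and myoblast library 3 it was 0.08. Gtpbp4, the counterpart of yeast Nog1, overlapped too, at -0.59 ± 0.31 (edgeR adjusted p = 0.159, and 0.0336 with the replicate block).

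The late nuclear group, which remodels the particle before export, had 2 of 5 genes lower, with a median log2 fold change of -0.81. Mrto4, related to the stalk protein P0 and holding its place on the pre-60S particle, had 12.8, 24.6 and 18.4 CPM in myotube libraries 1 to 3, against 49.7, 63.3 and 93.3 CPM in myoblast libraries 1 to 3. It was far lower in every myotube library, at -1.88 ± 0.31 (SE, edgeR adjusted p = 0.00255). Nle1, the counterpart of yeast Rsa4, fell by 1.20 ± 0.24 (SE, edgeR adjusted p = 0.00533). Nsa2 had 74.6, 66.0 and 70.3 CPM in myotube libraries 1 to 3, against 68.9, 85.6 and 86.1 CPM in myoblast libraries 1 to 3. Its groups overlapped, and the fold change of -0.19 ± 0.16 was the smallest of all members (SE, edgeR adjusted p = 0.377).

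Mdn1, the giant ATPase midasin that pulls factors off the particle, had 78.7, 163 and 159 CPM in myotube libraries 1 to 3, against 300, 129 and 274 CPM in myoblast libraries 1 to 3. Myoblast library 2 was below 2 of the myotube libraries, and Mdn1 was not called at -0.81 ± 0.38 (SE, edgeR adjusted p = 0.123, and 0.0476 without myoblast library 2). Sdad1, the counterpart of yeast Sda1, stood at -0.72 ± 0.26 (SE, edgeR adjusted p = 0.0556) and was called with the replicate block (0.0331), by DESeq2 (0.0422), with library size scaling (0.0291), with no filter on low counts (0.017) and without myotube library 2 (0.038).

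The rixosome joins the endonuclease Las1l to the SUMO protease Senp3 and the scaffold of Tex10, Pelp1 and Wdr18. Among the members, the 3 scaffold genes fell and the 2 enzymes were not called. Nol9, an enzyme of the same complex outside the 43 members, was called lower at -0.95 (edgeR adjusted p = 0.0404). Pelp1 had 12.7, 25.2 and 24.1 CPM in myotube libraries 1 to 3, against 40.4, 51.9 and 64.1 CPM in myoblast libraries 1 to 3. No myotube library reached the myoblast range, with a log2 fold change of -1.34 ± 0.30 (SE, edgeR adjusted p = 0.00882). Wdr18 fell by 1.07 ± 0.24 and Tex10 by 0.77 ± 0.21 (SE, edgeR adjusted p = 0.00913 and 0.0194), and the call for Tex10 was lost without myotube library 3 (0.0639), myoblast library 2 (0.0632), myoblast library 3 (0.0693) or both myotube library 1 and myoblast library 3 (0.0688). Senp3 had 52.7, 77.5 and 67.5 CPM in myotube libraries 1 to 3, against 84.1, 98.8 and 107 CPM in myoblast libraries 1 to 3. Its groups did not overlap, at -0.55 ± 0.20 (SE, edgeR adjusted p = 0.0544), and it was called with the replicate block (0.0302), by DESeq2 (0.0499), with library size scaling (0.0259) and without myotube library 2 (0.0418) or myoblast library 1 (0.0433). Las1l stood at -0.49 ± 0.22 (SE, edgeR adjusted p = 0.113). The difference between the scaffold genes and the enzymes was not tested.

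Of the 3 factors that act in export and in the cytoplasm, Eif6 fell. Eif6 keeps the 60S particle from joining the 40S subunit until it is removed in the cytoplasm. It had 65.3, 82.5 and 75.1 CPM in myotube libraries 1 to 3, against 172, 159 and 192 CPM in myoblast libraries 1 to 3. Both groups were tight, and the log2 fold change of -1.23 ± 0.17 had the smallest p-value of any member (SE, edgeR adjusted p = 0.00122). Nmd3, the export adaptor, stood at -0.70 ± 0.30 and was not called (SE, edgeR adjusted p = 0.0997), though it was with the replicate block (0.0254), with library size scaling (0.0488) and with no filter (0.0497). Lsg1, the GTPase that releases Nmd3 in the cytoplasm, stood at -0.49 ± 0.21 (SE, edgeR adjusted p = 0.103, and 0.0484 with library size scaling).

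**Figure D2:**
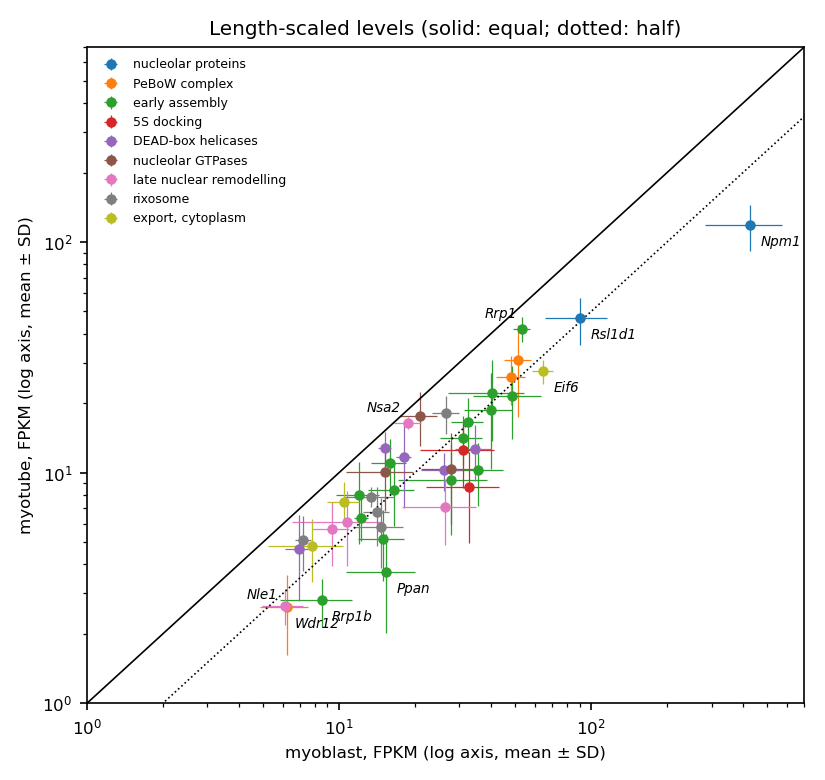
Length-scaled level of each member in myotubes (vertical axis) against myoblasts (horizontal axis), in FPKM on log axes, with the SD over 3 libraries per group; the solid line marks equal levels and the dotted line a ratio of 0.5. Every member lies below the line of equal levels, Npm1 farthest to the right and Nsa2 close to the line.

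The members were well expressed in both states. Their median level was 10.3 FPKM in myotubes and 18.8 FPKM in myoblasts, beside 4.24 and 4.16 FPKM over all tested genes. Above those all-gene medians stood 39 members in myotubes and 43 in myoblasts. After Npm1, the most abundant members in myoblasts were Rsl1d1, at 46.6 ± 10.7 FPKM in myotubes and 90.5 ± 24.9 FPKM in myoblasts, and Eif6, at 27.5 ± 3.19 FPKM in myotubes and 64.5 ± 6.11 FPKM in myoblasts (SD, n = 3 each). In myotubes Rrp1, at 42.1 FPKM, and Bop1, at 30.7 FPKM, stood above Eif6. The least abundant per length were Nle1 and Wdr12, at 2.66 ± 0.480 and 2.62 ± 0.996 FPKM in myotubes and 6.08 ± 1.12 and 6.20 ± 1.36 FPKM in myoblasts (SD, n = 3 each). These 2 neighbours did not differ beyond their spread. This order rests on the deposited lengths. Wdr12, with 11955 bases, had 74.1 CPM in myoblasts, beside 19.7 CPM for Nle1, with 3233 bases. Level and fold change were only weakly related across the 43 genes, with a Spearman rho of -0.24 between log2 fold change and myoblast FPKM; the genes share the same 6 libraries.

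The fall was uneven between libraries. Relative to its myoblast mean, the median member stood at 34.9%, 61.4% and 56.0% in myotube libraries 1 to 3, against 90.6%, 89.1% and 121% in myoblast libraries 1 to 3. Myotube library 1 held the lowest myotube value for 41 of 43 members, beside 42.7% of all tested genes, and myoblast library 3 held the highest myoblast value for 40 of 43, beside 30.1% of all tested genes. Without both of these libraries 24 members fell, beside 18.5% of all tested genes, and the median log2 fold change of the members was -0.61. Leaving out 1 library at a time gave between 20 and 30 members lower, beside 12.9% to 21% of all tested genes. In each of these fits 0 members were called higher.

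**Figure D3:**
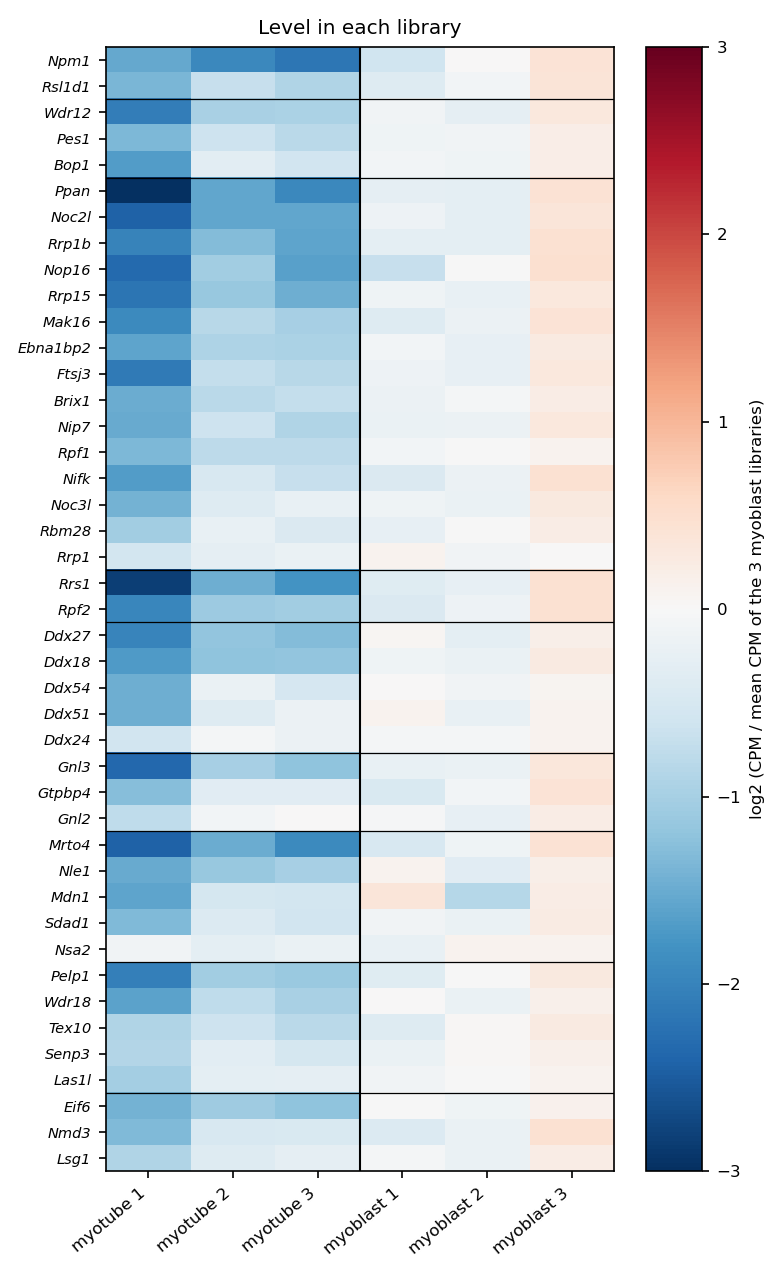
Log2 ratio of each member's level to its myoblast mean in each of the 6 libraries, members as rows by role and libraries as columns. Myotube library 1 has the lowest value for 41 of 43 members, and myoblast library 3 the highest myoblast value for 40 of 43.

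Other lists of the ribosome pathway put these values in context. Among 31 further 60S maturation genes 20 fell and 0 rose (median log2 fold change -0.77), and the most abundant one called was Pa2g4, at 56.1, 104 and 102 CPM in myotube libraries 1 to 3, against 247, 251 and 376 CPM in myoblast libraries 1 to 3. Among 55 genes for maturation of the small (40S) subunit 35 fell and 0 rose (median -0.95), led in level by Wdr36 at -1.54. Of 47 genes for proteins of the 60S subunit itself, 14 fell and 0 rose (median -0.61), led by Rpl4 at -0.89. The shares that fell in these lists were 64.5%, 63.6% and 29.8%, beside 19.6% of all tested genes. The count for the further 60S genes was 11 without myotube library 3 or myoblast library 2 and 7 without myoblast library 3. Of all tested genes 13.1%, 12.9% and 13.1% fell in those fits. Sbds, which helps release Eif6 and was picked out after its values were seen, was called higher without myotube library 1 (0.44 on the log2 scale, edgeR adjusted p = 0.0483) and without both that library and myoblast library 3 (0.51, edgeR adjusted p = 0.0463), but not with all libraries (0.33, edgeR adjusted p = 0.189). For the 40S list the number called lower was 22 without myoblast library 2 and 21 without myoblast library 3. The shares of all tested genes in those fits were 12.9% and 13.1%.

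The 60S ribosomal protein genes had another order among the libraries than the maturation factors. The median log2 ratio to the myoblast mean was -1.52, -0.70 and -0.84 for the 43 members in myotube libraries 1 to 3, and -0.22, -0.77 and -0.95 for the ribosomal protein genes in the same libraries. Myotube library 1 was thus the lowest of its group for the maturation factors and the highest for the ribosomal protein genes. Their number called lower was 41 without myotube library 1, beside 21% of all tested genes. It was 39 without both that library and myoblast library 3, beside 18.5% of all tested genes. It was 7 without myotube library 2 and 6 without myotube library 3, out of 47, beside 15.7% and 13.1% of all tested genes in the same fits, so their share was then near the background. It was 8 without myoblast library 2 and 8 without myoblast library 3, beside 12.9% and 13.1% of all tested genes. The same count was 29 with library size scaling, 24 with DESeq2, 23 with no filter and 22 with the replicate block. Of all tested genes 23.1%, 21.6%, 10.4% and 20.9% were called lower in those fits. The further 60S genes and the 40S genes had medians of -1.31 and -1.39 in myotube library 1, below the other myotube libraries as the members were.

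**Figure D4:**
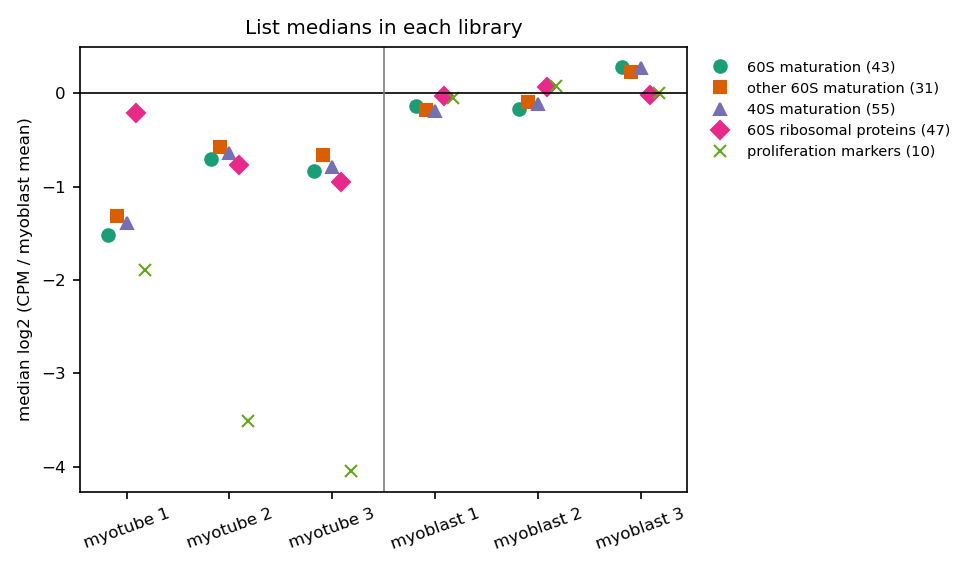
Median log2 ratio to the myoblast mean of the 43 members, of 3 further ribosome lists and of 10 proliferation markers in each of the 6 libraries. In myotube library 1 the members stand at -1.52 and the 60S ribosomal protein genes at -0.22.

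In the network of MYC, whose proteins bind E-boxes together with MAX, Myc itself fell. Myc had 17.0, 25.8 and 29.7 CPM in myotube libraries 1 to 3, against 55.1, 38.3 and 79.8 CPM in myoblast libraries 1 to 3. Its groups did not overlap, at -1.26 ± 0.31 (SE, edgeR adjusted p = 0.0138). MXD proteins compete with MYC for MAX, and not all genes of that family were in the list. Of those listed, Mxd1 and Mxd4 rose by 3.31 and 2.01 on the log2 scale, and Mxd3 fell by 2.53 (edgeR adjusted p = 0.000167, 0.0024 and 0.00861). Mxd3 was not called with no filter on low counts (adjusted p = 0.0613), and its fold change was -3.39 without myotube library 1. Max, Mnt, Mga and Mycl were not called, with log2 fold changes of -0.43, -0.14, 0.34 and 1.13 (edgeR adjusted p = 0.105, 0.624, 0.184 and 0.0878). Mycl was called higher with the replicate block (0.0147), by DESeq2 (0.0449) and without myotube library 1, alone (0.00437) or together with myoblast library 3 (0.0141). Mycn was below the filter, with 10 counts over the myotube libraries and 8 over the myoblast libraries.

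Within 3 pairs of related factors the ratio was also lower in myotubes. The ratio of Rrp1b to Rrp1, both counterparts of yeast Rrp1, was 0.0582, 0.0779 and 0.0625 in myotube libraries 1 to 3, against 0.123, 0.142 and 0.218 in myoblast libraries 1 to 3. That of Gnl3 to Gnl2 was 0.437, 0.703 and 0.573 in myotube libraries, against 1.15, 1.37 and 1.44 in myoblast libraries. For Gnl3 against its close relative Gnl3l it was 0.342, 0.739 and 0.629 in myotube libraries, against 1.37, 1.13 and 1.45 in myoblast libraries. All of these ratios, taken on FPKM, were below the myoblast range in every myotube library, and each had an exact permutation p of 0.1, two-sided and adjusted over the 3 pairs, which is the smallest that 3 libraries against 3 allow. The pairs were chosen after their values were seen, and each sets a gene called lower against one that was not. The p-values therefore cannot serve as a test of the ratios.

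Several promoter windows hold the same motifs, counted on both strands. The E-box and the ETS core cannot share a base, while the other motifs searched can overlap each other or these. The E-box CACGTG occurs in 8 of 36 members (22.2%), namely Mdn1, Nle1, Nmd3, Pelp1, Pes1, Rpf2, Sdad1 and Tex10. It occurs in 11.6% of 10569 tested genes and 8.09% of all 27025 genes with a window. The median log2 fold change was -0.85 in members with the E-box and -0.96 in members without it. The ETS core CCGGAAG occurs in 14 of 36 (38.9%), beside 19.6% of tested genes and 9.93% of all genes with a window. In the sequences shown above, Pelp1 has its E-box at position -229 relative to the start, while Rpf2 has its own at position 34 after it and ETS cores at -20, -5 and 18.

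Other promoter elements were nearer to, or below, their share in tested genes. The GC box GGGCGG occurs in 26 members (72.2%, beside 67.7% of tested genes and 38.2% of all genes with a window). TATAAA occurs in 4 (11.1%, beside 9.32% and 15.7%) and the palindromic NRF1 motif in 4 (11.1%, beside 11.2% and 5.19%). CCAAT occurs in 9 (25%, beside 43.3% of tested genes and 41.1% of all genes with a window). A match is a stretch of letters in a window and shows no binding.

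Of the 36 members with a window, 12 (33.3%) start within 500 bases of a gene read in the other direction, beside 18.1% of 10569 tested genes. Among the 11 tested partners 2 fell, 2 rose and 7 were not called, with a median log2 fold change of -0.31, beside -1.10 for the 11 members they face. The member was the more negative of the pair in 9 of 11, and its ratio to the partner was lower in every myotube library than in every myoblast library in 7. Some partners were near the floor: A430105J06Rik, facing Rrp15, had 0.234 to 0.812 CPM over the libraries, and 2610020C07Rik, facing Rsl1d1, had 0.456 to 2.56 CPM. The pair of Rrp15 and A430105J06Rik had the widest gap in fold change and is among both the 9 and the 7. In the annotation A430105J06Rik also overlaps Rrp15, and Carf overlaps Wdr12. All partners were looked up after the members' values were known. Of the 11 members, 9 were themselves called lower, so a less negative partner was likely beforehand. No share over other gene pairs was computed, and the contrast with the partners was not tested.

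The 3 members printed first are all members that fell and had a more negative fold change than their partner. The starts of Mrto4 and Emc1, a subunit of the membrane insertase complex, are 11 bases apart. Emc1 had 71.1, 97.0 and 81.8 CPM in myotube libraries 1 to 3, against 91.2, 120 and 134 CPM in myoblast libraries 1 to 3. It was not called, at -0.46 (edgeR adjusted p = 0.103, but 0.045 with library size scaling and 0.0401 without myoblast library 1), and the ratio of Mrto4 to Emc1 was 0.179, 0.254 and 0.225 in myotube libraries, against 0.545, 0.527 and 0.697 in myoblast libraries. Gnl3 starts 7 bases from Pbrm1, a chromatin remodelling subunit, and the ratio of Gnl3 to Pbrm1 was 0.185, 0.339 and 0.306 in myotube libraries, against 0.578, 0.549 and 0.693 in myoblast libraries. Nop16 and Higd2a, a mitochondrial gene, start 157 bases apart and had fold changes of opposite sign. Higd2a rose by 0.76 (edgeR adjusted p = 0.0296), with 24.9, 16.5 and 16.2 CPM in myotube libraries 1 to 3, against 11.7, 11.9 and 10.4 CPM in myoblast libraries 1 to 3. Carf, the partner of Wdr12, likewise rose by 0.73 (edgeR adjusted p = 0.0311). Neither rise was called with library size scaling (Higd2a 0.07, Carf 0.0624), without myotube library 1 (0.0573 and 0.0558) or without any single myoblast library (0.0591 to 0.0992 for Higd2a and 0.0775 to 0.0847 for Carf), and that of Carf was also lost without myotube library 3 (0.0503). Without both myotube library 1 and myoblast library 3 the adjusted p was 0.0852 for Higd2a and 0.0688 for Carf. Noc4l, the partner of Ddx51 and itself a factor of 40S assembly, fell by 1.44, while Ddx51 was not called.

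**Figure D5:**
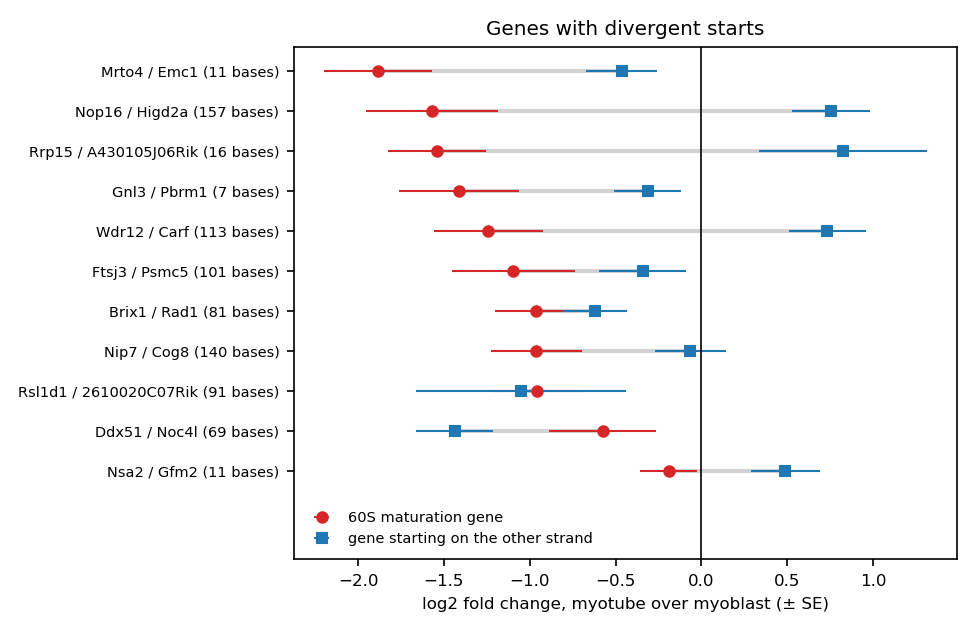
Log2 fold change, myotube over myoblast, with its standard error, of members with a divergent start and of the partner gene read the other way. The member is the more negative in 9 of the 11 pairs with a tested partner.

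In the RefSeq annotation 18 members overlap another gene, 12 of them a protein-coding one. Overlap was judged on the outer bounds of the genes, introns included, and so does not show that exons are shared. Where exons are shared, the counts would be uncertain if the counting ignored strand. Any effect on the counts was not tested. Among the members not called, Bop1 has the gene Scx within its bounds, which had 15072 counts over the 6 libraries and a log2 fold change of 0.75. Las1l, also not called, overlaps Zc3h12b (1441 counts, 0.92). Members called lower have such neighbours too, as Gnl3 with Glt8d1 (7145 counts, 1.07) and Ftsj3 with Ddx42 (22304 counts, -0.20). Gnl3 and Ppan hold 5 snoRNA genes within their bounds, small RNAs that guide modification of ribosomal RNA. Of these, Snord19 and Snord69 inside Gnl3 had 0 counts in all 6 libraries. LOC115488429 in Gnl3 and LOC115487308 and LOC115487312 in Ppan had no entry under those symbols among the counted genes. No small RNA libraries of C2C12 cells were at hand, so the 0 counts do not show that these snoRNAs were absent.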

How the data were processed

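Per the labels' protocols, total RNA from C2C12 cells was made into libraries with the TruSeq Stranded Total RNA Gold kit. The authors deposited raw counts per gene, with gene symbols and lengths. The submitters' processing notes name STAR 2.5.1b, featureCounts 1.5.1, DESeq2 1.18.1, Salmon 0.12.0, bcl2fastq and mm10, without roles; the strand setting is not given in the sources used here, and reads shared with near-identical copies are uncertain. Counts were tested with edgeR 4.0.16 (R 4.3.3): TMM scaling, filterByExpr by group, robust quasi-likelihood F-test, no covariate, Benjamini-Hochberg adjustment over 15932 genes. The standard error is the absolute log2 fold change over the root of F. CPM and FPKM were computed from TMM-scaled counts, the latter with the deposited lengths. The steps were tested on simulated data with 200 changed genes.

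Same-numbered libraries deviated together (correlations of 0.232, 0.189 and 0.17 in the 3 pairs, with the numbers taken from the titles), although a differently numbered pair, myotube library 2 and myoblast library 3, had the highest correlation (0.358) and no label says what the numbers share; values with the replicate block are given where they change a call. Alternatives were library size and relative log expression scaling, DESeq2 1.42.0, no filter, a mean of at least 50 counts, the block, each library left out, and, chosen after seeing the data, 2 libraries left out together. Named in each role were the member with the highest level per length, the one with the largest fold change and all that were not called; context lists gave their most abundant called gene. The members and lists were chosen with earlier results of these data known. No libraries were duplicates. Promoter sequences are from RefSeq, GRCm38.p6; the protein sequences and the windows of 7 members were not used here.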

Additional observations from a re-analysis of the deposited data

How the results depend on the processing

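The numbers of 60S maturation genes called lower and higher and the counts over all tested genes stayed at 0 or within 1.5 times under every alternative run. The median fold change of the 60S maturation genes kept its sign. It moved by less than the SD of the member medians of the 3 myotube libraries. The number called lower was 31 with library size scaling, 26 with relative log expression scaling, 28 with DESeq2 and 28 with no filter. It was 25 with a mean of at least 50 counts and 33 with the replicate block, beside 26 as reported. In the same order, 23.1%, 19.8%, 21.6%, 10.4%, 21.4% and 20.9% of all tested genes were called lower, beside 19.6% as reported. With 1 library left out the number of members was between 20 and 30, beside 12.9% to 21% of all tested genes. The median log2 fold change lay between -1.07 and -0.90 in the alternatives that kept all libraries, and between -1.15 and -0.79 with 1 library left out. The largest move was to -0.61, without both myotube library 1 and myoblast library 3. With library size scaling, the median over all genes moved to -0.07, and 3678 genes were called lower and 2678 higher, against 3122 and 3264. In every setting 20 members were called lower and in at least 1 setting 36 were. No such tally was made over all tested genes. A negative fold change in every setting was kept by 42 members, the exception being Gnl2 without both myotube library 1 and myoblast library 3. Having 6 libraries limits the precision, and the smallest member count of 171 leaves counting error small beside the spread between libraries.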
